A study of Rattus norvegicus with 9 samples.

Results

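The 10 genes described here serve or control the route that brings peptides to MHC class I molecules: B2M, TAP1, TAP2, TAPBP, PSMB8, PSMB9, PSMB10, PSME1, PSME2 and NLRC5. They were chosen by name, as the antigen processing genes of the class I route, with earlier results of these data known. All 10 were found among the 23480 gene symbols of the count table, which are written in capitals. RNA with poly(A) tails was sequenced from the skin of 9 male rats of the outbred Wistar strain. Of these rats, 5 were 6 months old (young) and 4 were 24 months old (old), and no treatment, transgene or deletion is labelled for either group. Each sample is a separate animal per the series' design text. From which body site the skin was taken is not stated, and the comparison asks how skin differs between these ages.

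Almost every nucleated cell shows peptides cut from its own proteins on MHC class I molecules, which cytotoxic T cells inspect. Proteasomes cut the proteins, the TAP transporter pumps the peptides into the endoplasmic reticulum, and tapasin holds an empty class I molecule beside TAP until a peptide is bound. Interferon gamma switches cells from the constitutive proteasome towards the immunoproteasome, in which the catalytic subunits PSMB8, PSMB9 and PSMB10 take the places of PSMB5, PSMB6 and PSMB7. In skin, keratinocytes, fibroblasts, endothelial cells and resident leukocytes can all carry this machinery, at levels that inflammation raises.

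The libraries held 17.3 to 20.2 M counts in young and 20.1 to 34.1 M in old skin (M for mega). Every count of old replicates 1 and 3 was even, whereas 48.1 to 48.4% of the nonzero counts were even in the other 7 libraries. The totals of these 2 libraries would be 17.1 and 14.7 M if each count stood for 2 equal parts. The counting method is not stated. All 9 keratinocyte markers, which define the labelled tissue, passed the filter, with a summed level of 21807 to 76814 counts per M. Markers of skeletal muscle summed to 15393 to 100245 counts per M, so every sample also held muscle RNA. Fewer cells of a type and less RNA per cell cannot be told apart in these bulk samples.

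In old skin, B2M, TAP1, TAP2, PSMB8 and PSMB9 rose by 1.54-fold to 2.13-fold, and their values in the old samples lay above every young sample. TAPBP, PSMB10, PSME1 and PSME2 did not pass the test, nor did NLRC5, which was high in 3 old animals and low in the other. The counts of each inducible subunit relative to the constitutive subunit it replaces were higher in 4 of 4 old samples than in any young sample, by 1.63-fold to 2.95-fold. Thus 5 of 10 members rose and 0 fell, against 9.62% of the 14933 genes tested that rose (edgeR's quasi-likelihood test with Benjamini-Hochberg adjustment over all genes tested, adjusted p under 0.05). The old samples lay above every young sample for 5 of the 10, against 10% of all genes tested. The median log2 fold change of the 10 was 0.68, and that of all genes tested was -0.05. With DESeq2, 6 of the 10 rose, against 12.9% of all genes. Among changes required to exceed 1.5-fold, 2 of the 10 rose, against 3.39%, and at an adjusted p under 0.01, 3 rose, against 4.7%. With the even counts of old replicates 1 and 3 divided by 2 the same 5 members rose, and they also did without both libraries, where 7.82% of all genes rose.

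The promoters of these genes are shown first, because an interferon-stimulated response element near the start is a known feature of many interferon-induced genes. RefSeq's table of the rat assembly GRCr8 gives 300 bases for each gene, 250 before and 50 after its start, and held 9 of the 10 members and all 3 constitutive counterparts. They were searched on both strands for the core of that element, GAAA followed by any 2 bases and GAAA again. It was present in 7 of the 9 members and in 0 of the 3 counterparts, against 3.92% of the 33469 promoters of this length. Each line gives the stretch around the match with the core in capitals, 5' to 3' on the gene's strand, or for PSMB9 and PSMB5, which have no match, the 120 bases before the start.
B2M (GRCr8 chr3:129549130-129549239, plus strand): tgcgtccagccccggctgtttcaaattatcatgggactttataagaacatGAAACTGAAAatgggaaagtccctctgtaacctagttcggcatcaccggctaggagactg
TAP1 (GRCr8 chr20:4668605-4668714, minus strand): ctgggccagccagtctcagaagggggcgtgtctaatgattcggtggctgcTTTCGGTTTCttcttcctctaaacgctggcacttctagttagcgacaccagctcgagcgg
TAP2 (GRCr8 chr20:4652297-4652387, minus strand): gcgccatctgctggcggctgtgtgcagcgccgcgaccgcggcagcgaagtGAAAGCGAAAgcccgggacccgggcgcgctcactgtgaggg
TAPBP (GRCr8 chr20:4967878-4967953, minus strand): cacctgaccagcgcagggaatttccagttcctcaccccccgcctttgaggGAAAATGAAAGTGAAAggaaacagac
PSMB8 (GRCr8 chr20:4657026-4657085, minus strand): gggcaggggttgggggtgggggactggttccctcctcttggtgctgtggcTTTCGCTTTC
PSMB10 (GRCr8 chr19:50743293-50743415, minus strand): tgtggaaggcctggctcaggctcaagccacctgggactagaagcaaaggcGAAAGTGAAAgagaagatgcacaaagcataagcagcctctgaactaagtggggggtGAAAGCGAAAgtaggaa
PSME2 (GRCr8 chr15:33052752-33052854, minus strand): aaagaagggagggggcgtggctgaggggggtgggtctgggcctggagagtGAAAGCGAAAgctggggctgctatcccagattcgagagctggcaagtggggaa
PSMB9 (GRCr8 chr20:4668880-4668999, plus strand): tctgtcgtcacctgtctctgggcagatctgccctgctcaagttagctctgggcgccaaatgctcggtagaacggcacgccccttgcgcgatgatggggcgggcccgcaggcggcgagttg
PSMB5 (GRCr8 chr15:32047380-32047499, minus strand): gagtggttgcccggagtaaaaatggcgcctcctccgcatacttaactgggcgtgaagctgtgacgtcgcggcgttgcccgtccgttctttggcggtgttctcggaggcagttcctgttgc

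TAP1 and PSMB8 hold the core on the other strand, where it reads TTTC, any 2 bases and TTTC. In PSMB8 it spans the start, at bases -4 to 6, and in PSME2 and TAP2 it lies at -53 and -41. TAPBP has 2 overlapping matches, at -26 and -20, and PSMB10 has 2 separate ones, at -73 and -17. TAP1 and PSMB9 are neighbours transcribed away from each other, with 457 bases between their starts. The match at -121 of TAP1 lies 336 to 345 bases before the start of PSMB9, beyond the 250 bases given for that gene. A match for the NF-kB motif (GGG, any 2 bases, TT, any base, CC) was found in B2M, TAP1 and TAPBP, and in 5.0% of all promoters. No match says only that these letters are not in this window.

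**Figure D1:**
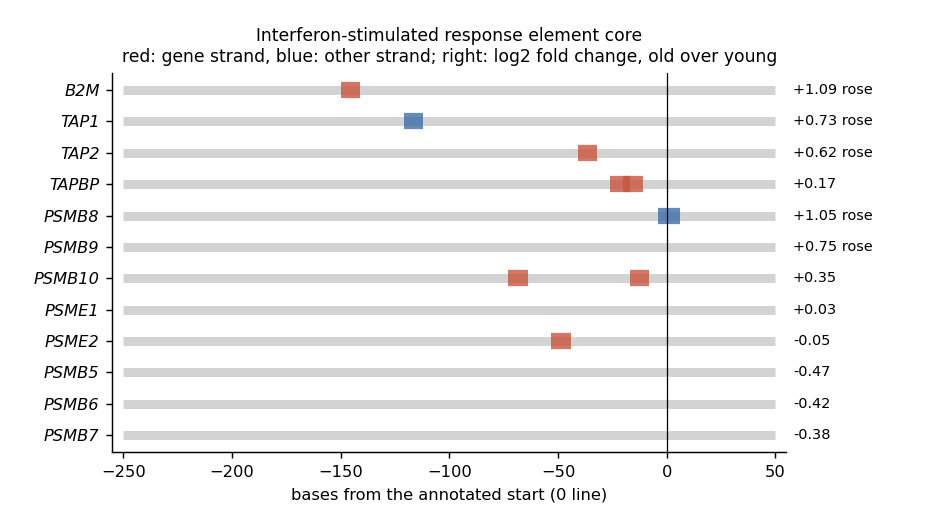
Matches of the interferon-stimulated response element core in the promoters of 9 members and 3 constitutive subunits, by distance in bases from the annotated start, red on the gene's strand and blue on the other, with each gene's log2 fold change (old over young) at the right. Of the 7 genes with a match, 4 rose in old skin, against 5 of all 10 members and 9.62% of all genes tested. TAPBP, PSMB10 and PSME2 have a match and did not pass. Of the members with no match in the window, PSMB9 rose and PSME1 did not pass. A link between the motif and the rises was not tested.

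Of the loading genes, B2M encodes the light chain that every class I molecule needs to reach the cell surface. Its level, in counts per M scaled by TMM (CPM), was 559, 874, 664, 704 and 700 in young replicates 1 to 5 and 1290, 1368, 1727 and 1588 in old replicates 1 to 4. The groups did not overlap, and the lowest old animal was above the highest young one. B2M rose by 1.09 ± 0.17 on the log2 scale (SE, adjusted p = 0.00318, edgeR), from 700 ± 113 (SD, n = 5) to 1493 ± 200 CPM (SD, n = 4).

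TAP1 and TAP2 encode the 2 chains of the peptide transporter. In the rat, allelic forms of TAP2 differ in the peptides they carry. TAP1 stood at 31.7, 37.1, 27.8, 30.6 and 27.0 CPM in young and at 42.0, 39.0, 60.5 and 63.2 CPM in old replicates. Every old value was above the young ones, but old replicates 1 and 2 were close to the highest young sample and replicates 3 and 4 were well above it. TAP1 rose by 0.73 ± 0.17 (log2 fold change, SE, adjusted p = 0.0192, edgeR), and did not pass once young replicate 3 was left out (adjusted p = 0.0520). TAP2 stood at 22.7, 32.7, 26.0, 29.0 and 28.0 CPM in young and at 39.3, 40.8, 39.4 and 50.6 CPM in old replicates. It rose by 0.62 ± 0.13 (log2 fold change, SE, adjusted p = 0.0120, edgeR), and 3 of the 4 old animals were nearly alike, with replicate 4 apart.

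TAPBP encodes tapasin, the bridge between TAP and the class I heavy chain. Its level was 21.7 to 33.4 CPM in young and 28.1 to 34.1 CPM in old skin, ranges that overlap. Its log2 fold change of 0.17 ± 0.13 (SE) did not pass (adjusted p = 0.412, edgeR). Of the 4 loading genes, then, 3 rose and tapasin did not pass.

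**Figure D2:**
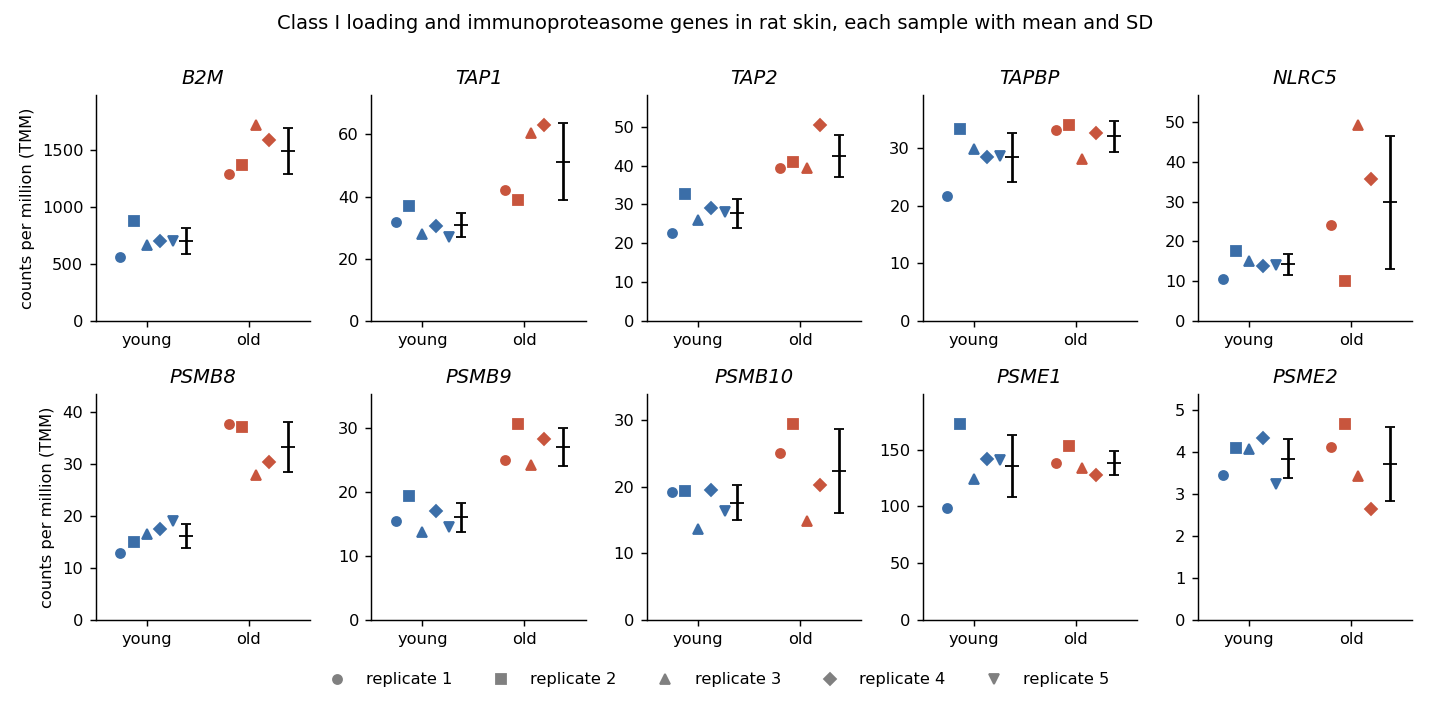
Level of each of the 10 genes in counts per M (TMM-normalized) in 5 young and 4 old samples, with a symbol for each replicate number and, beside the points, the mean with SD. The old samples lie above the young for B2M, TAP1, TAP2, PSMB8 and PSMB9, and NLRC5 runs from 9.87 to 49.4 CPM in old skin.

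PSMB8, PSMB9 and PSMB10 encode the inducible catalytic subunits, known as beta5i, beta1i and beta2i. PSMB8 stood at 12.9, 14.9, 16.4, 17.4 and 18.9 CPM in young and at 37.7, 37.0, 27.9 and 30.4 CPM in old replicates. No old sample came near the young range. It rose by 1.05 ± 0.14 (log2 fold change, SE, adjusted p = 0.00217, edgeR). PSMB9 stood at 15.4, 19.4, 13.8, 17.1 and 14.5 CPM in young and at 25.0, 30.7, 24.3 and 28.3 CPM in old replicates. Again all 4 old samples were higher, and it rose by 0.75 ± 0.13 (log2 fold change, SE, adjusted p = 0.00578, edgeR). PSMB10 stood at 19.2, 19.4, 13.6, 19.5 and 16.4 CPM in young and at 25.1, 29.5, 14.8 and 20.3 CPM in old replicates. Old replicate 3 lay inside the young range and the other 3 above it, and the log2 fold change of 0.35 ± 0.20 (SE) did not pass (adjusted p = 0.284, edgeR).

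PSME1 and PSME2 encode the alpha and beta chains of PA28, a cap that interferon gamma also induces and that opens the core particle. PSME1 stood at 99.0 to 173 CPM in young and 128 to 153 CPM in old skin, with a log2 fold change of 0.03 ± 0.16 (SE, adjusted p = 0.923, edgeR). All 4 old values lay within the young range. PSME2 stood at 3.25 to 4.34 CPM in young and 2.65 to 4.68 CPM in old skin, with a log2 fold change of -0.05 ± 0.20 (SE, adjusted p = 0.889, edgeR). Neither direction is stable. The PSME2 value was 0.10 with library totals alone and ran from -0.18 to 0.13 as single libraries were left out, and that of PSME1 from -0.03 to 0.13. GRCr8 names 3 further copies each of PSME1, PSME2 and PSMB6 and 2 of PSMB7, which can share reads with them, so the values of these genes are uncertain.

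NLRC5 encodes the transactivator that is carried to class I promoters, including those of B2M, TAP1 and PSMB9. It stood at 10.4, 17.6, 15.1, 13.8 and 13.9 CPM in young and at 24.2, 9.87, 49.4 and 35.7 CPM in old replicates. Old replicate 2 was below every young sample, whereas the other 3 old samples were above all of them, and the old values spanned 5.01-fold. The log2 fold change of 1.08 ± 0.38 (SE) did not pass (adjusted p = 0.0866, edgeR). It passed without old replicate 2 (1.36, adjusted p = 0.00736) and with DESeq2 (1.08, adjusted p = 0.0273). Relative to the mean of young skin, that animal was at -0.52 for NLRC5 on the log2 scale, at 0.34 for TAP1, its lowest among the old animals, and at 0.97 for B2M, 0.56 for TAP2, 1.20 for PSMB8 and 0.94 for PSMB9.

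**Figure D3:**
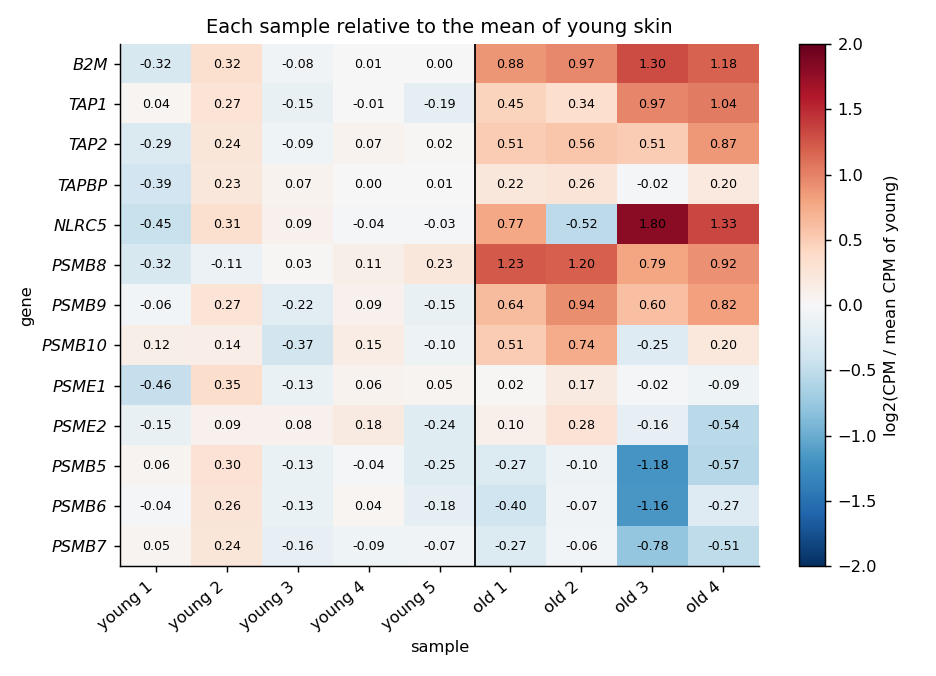
Log2 of each sample's CPM over the mean CPM of young skin, for the 10 members and the 3 constitutive subunits (rows) in the 9 samples (columns), red above and blue below that mean. Old replicate 3 shows the highest B2M (1.30) and NLRC5 (1.80) and the lowest PSMB5 (-1.18), and old replicate 2 the lowest NLRC5 (-0.52).

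The old animals did not share an order across these genes. B2M and NLRC5 were highest in old replicate 3, and TAP1 and TAP2 in old replicate 4. PSMB9, PSMB10, PSME1, PSME2 and TAPBP were highest in old replicate 2, and PSMB8 in old replicate 1, just above replicate 2. PSMB8, PSMB9, PSMB10 and TAPBP were lowest in old replicate 3. TAP2, PSMB8, TAP1 and PSMB9 follow each other along chromosome 20 of GRCr8 with no other protein-coding gene between them, and TAPBP lies on the same chromosome. The 4 neighbours rose, by 0.62 to 1.05 on the log2 scale, while TAP1 was highest in old replicate 4 and PSMB8 in old replicate 1.

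The inducible subunits were then set against the constitutive ones that they replace. PSMB5, the chymotrypsin-like subunit, stood at 136, 160, 119, 127 and 110 CPM in young and at 108, 122, 57.7 and 88.1 CPM in old replicates. Old replicate 2 was inside the young range and the other 3 below it. Its log2 fold change was -0.47 ± 0.21 (SE, adjusted p = 0.169, edgeR). Those of PSMB6, the caspase-like subunit, and PSMB7, the trypsin-like subunit, were -0.42 ± 0.21 (SE, adjusted p = 0.225, edgeR) and -0.38 ± 0.16 (SE, adjusted p = 0.153, edgeR). None of the 3 passed with edgeR or DESeq2 (unadjusted p of 0.0493 for PSMB5, 0.0790 for PSMB6 and 0.0421 for PSMB7 with edgeR), and 3 of the 4 old samples lay below every young sample for each of them.

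The ratio of PSMB8 to PSMB5 counts was 0.0951, 0.0934, 0.138, 0.137 and 0.172 in young and 0.350, 0.302, 0.484 and 0.345 in old replicates. A ratio within a sample does not depend on library scaling, and gene length cancels when its change is compared between samples. The groups were far apart, with 1.56 between their means on the log2 scale (-3.02 ± 0.38, SD, n = 5, against -1.46 ± 0.29, SD, n = 4, two-sided exact permutation p = 0.00794). The ratio of PSMB9 to PSMB6 counts was 1.21, 1.24, 1.16, 1.26 and 1.26 in young and 2.52, 2.44, 4.14 and 2.58 in old replicates. Young animals were almost identical and old replicate 3 stood above the other old ones. The means differed by 1.22 on the log2 scale (0.29 ± 0.05, SD, n = 5, against 1.51 ± 0.36, SD, n = 4, exact permutation p = 0.00794), or by 1.04 without old replicate 3. PSMB6 was a low denominator, at 13.1 ± 1.63 CPM (SD, n = 5) in young and 9.82 ± 2.85 CPM (SD, n = 4) in old skin. PSMB5 averaged 130 and 94.0 CPM there, and PSMB7 215 and 165 CPM. Gene lengths differ and named copies of PSMB6 can share its reads, so a ratio above 1 is one of reads, not of subunits. The ratio of PSMB10 to PSMB7 counts was 0.0864, 0.0767, 0.0708, 0.0968 and 0.0806 in young and 0.141, 0.143, 0.118 and 0.134 in old replicates. The groups again did not overlap, with a difference of 0.71 on the log2 scale (-3.61 ± 0.17, SD, n = 5, against -2.90 ± 0.12, SD, n = 4, exact permutation p = 0.00794).

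For all 3 ratios 0.00794 is the smallest p that 5 against 4 samples allow, and the p adjusted over the 3 ratios is the same. The ratio changes are made of both terms. For PSMB8 the numerator had a log2 fold change of 1.05 and the denominator one of -0.47, and for PSMB10 they were 0.35 and -0.38, of which neither passed alone. Together, PSMB8, PSMB9 and PSMB10 made up 12.3 ± 1.13% (SD, n = 5) of the summed counts of the 6 catalytic subunit genes in young skin and 23.8 ± 1.77% (SD, n = 4) in old skin. That share runs over genes of different length and is a share of reads, not of subunits.

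**Figure D4:**
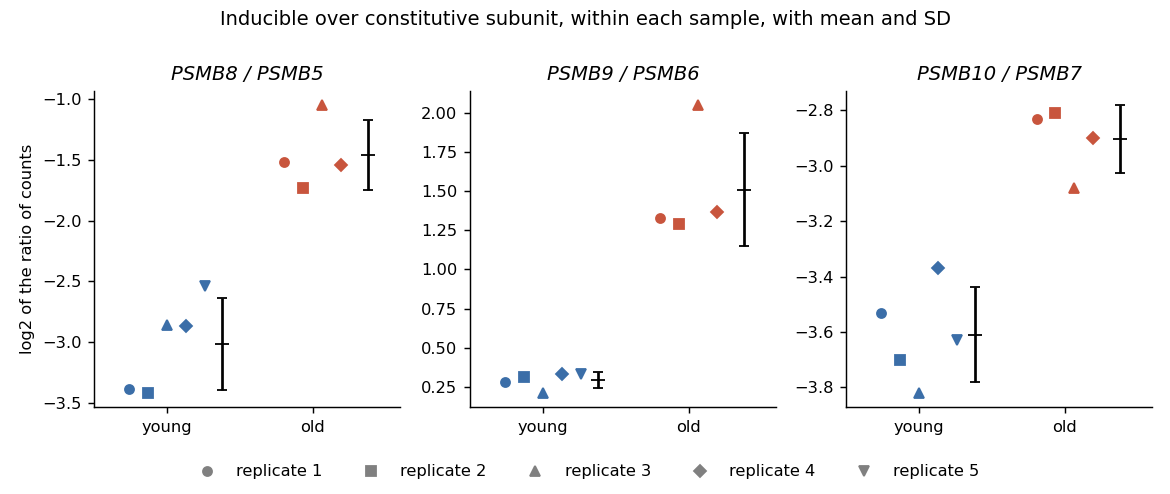
Log2 ratio of the counts of each inducible subunit to those of its constitutive counterpart in the 5 young and 4 old samples, with a symbol for each replicate number and the mean with SD beside the points (the vertical axes differ and do not start at 0). The old samples lie above the young in each panel, by 1.56, 1.22 and 0.71 between the means.

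The rest of the proteasome did not rise with the inducible subunits. Of 11 other subunits of the 20S core, 1 fell and 0 rose, and all 11 had negative log2 fold changes (median -0.31). The member that fell was PSMA7 (-0.52 ± 0.15, SE, adjusted p = 0.0477, edgeR), a call that survived leaving out old replicate 2 but not any other single library (largest adjusted p 0.170). Of 18 subunits of the 19S regulatory particle, which recognises and unfolds tagged proteins, 2 fell and 0 rose, and all 18 were negative (median -0.38). They were PSMD8 (-0.67 ± 0.16, SE, adjusted p = 0.0223, edgeR) and PSMD3 (-0.52 ± 0.14, SE, adjusted p = 0.0394). PSMD8 did not pass on omission of young animal 2 or 4, nor of old animal 3 or 4 (largest adjusted p 0.0801). PSMD3 passed on omission of young animal 5 or old animal 2 alone (otherwise a largest adjusted p of 0.142). These counts of falls stand beside 4.41% of all genes tested that fell. The 19S count depends on the setting: 10 of 18 fell with DESeq2, against 8.57% of all genes, and 9 without old replicate 2, against 5.2%, whereas 0 fell without young replicate 2 or 4 or without old replicate 3 or 4, and 1 fell without young replicate 1 or 3 or old replicate 1. In the 20S list 2 fell with DESeq2.

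With library totals alone as the scaling, the median of all genes tested moved from -0.05 to 0.11. The 20S list then stood at -0.16 and the 19S list at -0.23, where 17 of the 18 were negative and 1 positive. All 11 and all 18 lay below the median of all genes under either scaling. None of PSMA7, PSMD8 and PSMD3 passed with library totals (adjusted p of 0.0788 to 0.137), nor without both libraries of even counts (0.0666 to 0.162). Among 8 other activators and assembly factors, 1 fell and 0 rose (3 fell with DESeq2 and 2 without old replicate 2). It was PSME4, which encodes the nuclear activator PA200 (-0.65 ± 0.17, SE, adjusted p = 0.0303, edgeR), which did not pass on omission of young animal 2, 4 or 5, nor of old animal 1, 3 or 4 (largest adjusted p 0.118), nor with library totals (0.0683) or without both libraries of even counts (0.104). PSME3, which encodes the PA28 gamma chain that interferon does not induce, had a log2 fold change of -0.18 ± 0.13 (SE, adjusted p = 0.367). PSMB11, the thymus-specific subunit, named after its value was seen, had 3 to 12 counts per library and was not tested.

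**Figure D5:**
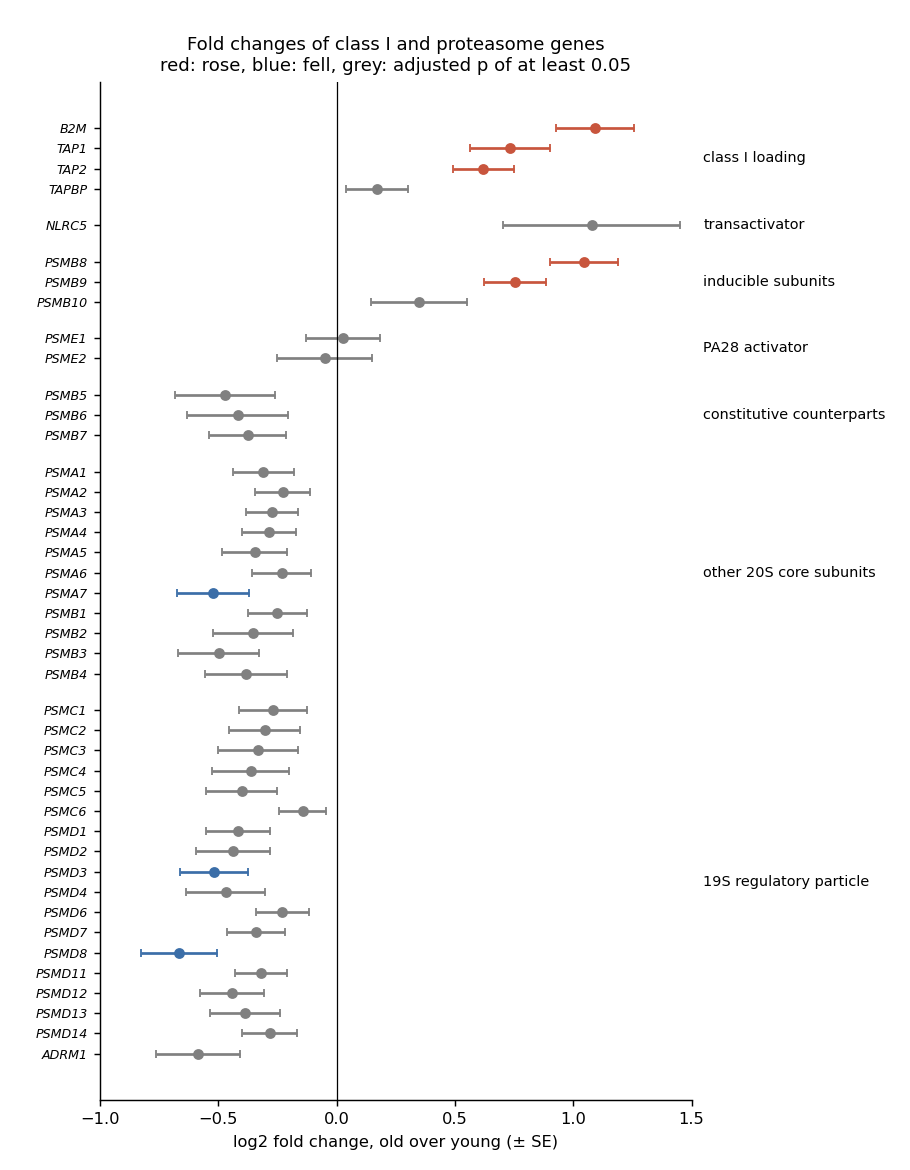
Log2 fold change (old over young) with SE for class I loading genes, NLRC5, and proteasome genes by group, red where a gene rose, blue where it fell and grey where the adjusted p was at least 0.05. Of the inducible subunits, PSMB8 and PSMB9 rose, and all constitutive 20S and 19S subunits shown lie to the left of 0 with 3 past the threshold.

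Of 13 other genes of peptide loading and trimming, 12 were tested, 1 rose and 1 fell, with a median of 0.04. ERAP1, the aminopeptidase that trims peptides in the endoplasmic reticulum, went from 43.8 ± 5.55 to 64.5 ± 11.9 CPM (SD, n = 5 and n = 4), with groups that did not overlap (log2 fold change 0.56 ± 0.14, SE, adjusted p = 0.0287, edgeR). It did not pass on omission of young animal 2 (adjusted p = 0.0519) or 3 (0.0687), nor without both libraries of even counts (0.0777). THOP1, a cytosolic peptidase that destroys peptides, fell by 0.66 ± 0.16 (SE, adjusted p = 0.0216, edgeR), but not on omission of young animal 1, 3 or 4 or of old animal 1, 3 or 4 (largest adjusted p 0.0861), with library totals (0.0765) or without both libraries of even counts (0.157). Chaperones and a peptide editor of class I molecules did not pass. The log2 fold change was 0.07 ± 0.13 (SE) for CALR (calreticulin), 0.06 ± 0.14 for CANX (calnexin), 0.22 ± 0.14 for PDIA3 (ERp57) and 0.15 ± 0.12 for TAPBPL (TAPBPR, which edits peptides outside the loading complex), and the adjusted p was at least 0.322.

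The heavy chains themselves come from the RT1 genes, the rat MHC, whose near-identical copies share reads, so they are given as a group only. Of 39 class I RT1 symbols, 33 were tested, 17 rose and 0 fell, with a median log2 fold change of 1.00; without both libraries of even counts 15 rose. Their summed level was 403 to 586 CPM in young and 756 to 1252 CPM in old skin, without overlap. Old replicates 3 and 4, which had the highest B2M and TAP1, also had the highest RT1 sums, 1173 and 1252 CPM.

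Of 22 genes of interferon gamma signalling and class I transactivation, 21 were tested, 2 rose and 0 fell, with a median of 0.15, a share close to the 9.62% of all genes that rose. The count was 4 with DESeq2, 5 with library totals, against 13.1% of all genes, and 4 without old replicate 2, against 10.4%. It was 3 without old replicate 3 and 1 without young replicate 3, 4 or 5 or old replicate 4. CIITA, the class II transactivator and a relative of NLRC5, went from 9.08 ± 1.75 to 15.8 ± 2.12 CPM (SD, n = 5 and n = 4), a rise of 0.80 ± 0.17 (log2 fold change, SE, adjusted p = 0.0142, edgeR) that did not pass without both libraries of even counts (adjusted p = 0.0509). IRF2 rose by 0.41 ± 0.11 (SE, adjusted p = 0.0356, edgeR), but not on omission of young animal 2, 3, 4 or 5 or of old animal 4 (largest adjusted p 0.0843), without a filter on low counts (0.0521) or without both libraries of even counts (0.0657). IRF1, the factor that binds the response element after interferon gamma, stood at 15.7 to 21.2 CPM in young and at 31.8, 36.7, 19.5 and 29.9 CPM in old replicates. Old replicate 3, with the highest NLRC5, had the lowest IRF1 of the old animals, and old replicate 2, with the lowest NLRC5, the highest. IRF1 lay at the threshold (0.60 ± 0.18, SE, adjusted p = 0.05 after rounding, edgeR), and passed in 8 alternatives but not in 13. It passed without old replicate 3 (0.79, adjusted p = 0.00607) and with DESeq2 (0.61, adjusted p = 0.0144). Others of the 8 were library totals alone (0.75, adjusted p = 0.0101) and leaving out both libraries of even counts (0.81, adjusted p = 0.0176). IFNG itself, named after its values were seen, had 0 or 1 count in every library and was not tested.

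Most markers of macrophages, T and NK cells and dendritic cells, leukocytes that carry high levels of this machinery, were also higher in old skin. B cell markers, given below, did not pass. Of 17 macrophage markers, 16 were tested and all 16 rose, and the summed level of the list went from 178 to 363 CPM in young to 696 to 1468 CPM in old samples. CD14, a monocyte receptor for endotoxin, rose from 8.67 ± 1.45 to 24.2 ± 0.938 CPM (SD, n = 5 and n = 4), and LYZ2, macrophage lysozyme, from 41.8 ± 7.86 to 137 ± 30.2 CPM. PTPRC, the common leukocyte antigen CD45, named after its value was seen, is already counted in the macrophage list and its sums. It went from 11.5 ± 2.85 to 38.4 ± 13.6 CPM (SD, n = 5 and n = 4). Of 15 T and NK cell markers, 13 were tested, 9 rose and 0 fell, with sums of 25.6 to 42.9 CPM in young and 94.2 to 172 CPM in old samples. CD4, which rat macrophages also carry, rose from 17.3 ± 5.74 to 97.7 ± 32.0 CPM and PRF1, the perforin of killer cells, from 0.5 ± 0.0302 to 1.57 ± 0.210 CPM. The mean T and NK cell sum was 32.9 CPM in young and 128 CPM in old samples, so CD4 was its larger part in both groups. Without both libraries of even counts, 15 macrophage and 3 T and NK cell markers rose, and without young replicate 3 alone 5 T and NK cell markers did. With a required change of over 1.5-fold, 15 macrophage and 2 T and NK cell markers rose, against 3.39% of all genes. At an adjusted p under 0.01 (edgeR) the counts were again 15 and 2, against 4.7%. Of 9 dendritic cell and class II genes, 8 were tested, 4 rose and 0 fell, and CIITA, also counted in the interferon gamma list, was among the 4. This list summed to 264 to 427 CPM in young and 595 to 795 CPM in old samples. The 4 became 2 without both libraries of even counts, and also on omission of young animal 1, 2 or 3 or of old animal 1 or 4. They became 0 with the required change and 1 at an adjusted p under 0.01 (edgeR). CD74, the class II invariant chain, rose from 299 ± 56.7 to 611 ± 85.1 CPM. It was most of the list's mean sums, 342 CPM in young and 671 CPM in old samples. No marker of these 3 lists was at 0 in all libraries. Among old samples, macrophage and T and NK cell sums were highest in replicate 3 and lowest in replicate 1, as was B2M, whereas PSMB8 was highest in replicate 1 and lowest in replicate 3. CD4 alone was at 60.8, 103, 138 and 89.3 CPM in old replicates 1 to 4. The T and NK cell sums there were 94.2, 124, 172 and 121 CPM, so their order is that of CD4. The part of leukocytes in the rises of B2M, TAP1, TAP2, PSMB8 and PSMB9 was not tested.

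Other tissue parts moved as well. All 9 adipocyte markers tested rose (sums of 488 to 1157 CPM in young and 3566 to 7663 CPM in old samples), and 4 of 7 fibroblast markers rose. ADIPOQ (adiponectin) went from 43.5 ± 27.3 to 902 ± 434 CPM (SD, n = 5 and n = 4), CFD (adipsin) from 195 ± 80.4 to 1480 ± 527, PDGFRA from 36.4 ± 9.76 to 119 ± 8.70 and DPT (dermatopontin) from 199 ± 35.9 to 682 ± 156 CPM. Of 9 keratinocyte markers, 3 fell and 0 rose, with sums of 27328 to 76814 CPM in young and 21807 to 31328 CPM in old samples, which overlap. IVL (involucrin) fell from 292 ± 42.9 to 162 ± 28.4 CPM and KRT1 from 15368 ± 6848 to 4625 ± 1341 CPM. KRT1 lost significance on omission of old animal 1 (adjusted p = 0.0556) or 4 (0.0650), and without both libraries of even counts (0.115). The keratinocyte count was 5 with DESeq2 and 1 without old replicate 4. Of 8 endothelial markers, 0 passed with edgeR or DESeq2 (2 at an unadjusted p under 0.05 with edgeR) but 3 rose without both libraries of even counts and 2 without old replicate 3. Of 7 B cell markers, 2 were tested and 0 passed with edgeR or DESeq2 (1 at an unadjusted p under 0.05), and of 8 skeletal muscle markers 1 rose (MYH4, 385 ± 159 to 14158 ± 9835 CPM) and 1 fell (MYH1, 13966 ± 6030 to 1442 ± 1270 CPM), both fast myosin heavy chains, of which MYH1 did not pass without both libraries of even counts (adjusted p = 0.0526, edgeR). Their part in the changes above was not tested.

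Of 11704 genes outside the 10 members with a mean of at least 5 CPM, the profiles most like the mean profile of the members belonged to FST, SERINC3 and HEXA. The root mean square difference of centred log2 CPM over the 9 samples was 0.07, 0.08 and 0.09. FST (follistatin, which binds activin) went from 28.6 ± 3.63 to 42.3 ± 3.16 CPM (SD, n = 5 and n = 4). HEXA, a lysosomal hexosaminidase subunit, went from 77.5 ± 7.67 to 114 ± 7.93 CPM, and SERINC3, a membrane protein, from 167 ± 15.6 to 234 ± 17.6 CPM. SERINC3 did not pass without young replicate 3 (adjusted p = 0.0542, edgeR).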

How the data were processed

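The deposited file holds raw read counts per gene symbol, whole numbers with no normalization, 1 column per sample, as the authors deposited them. Per the labels' protocols, Qiagen RNeasy columns gave the RNA and Illumina's TruSeq RNA v2 kit, which does not mark strand, the libraries. BWA is named, with no version, per the submitters' processing notes. Neither genome build nor annotation nor counting method is stated, so reads of overlapping genes or near-identical copies cannot be told apart.

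Columns were matched to samples by title. Among the members and PSMB5 to PSMB7, depth limits precision most for PSME2, with 57 to 156 counts per library; of other genes named, PRF1 had 8 to 66. The filter was filterByExpr of edgeR with a minimum count of 10 and total of 15. It left 14933 genes, and old was compared with young by the quasi-likelihood test (edgeR 4.0.16, R 4.3.3) with TMM normalization and no covariate. Adjusted p-values are Benjamini-Hochberg over all genes tested, and each SE was taken as the log2 fold change, without its sign, divided by the root of its F statistic. All 10 members passed the filter. Log2 ratios had 0.5 added to each count. Their p-values come from exact permutation over the 126 divisions into 5 and 4.

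The members and lists were chosen with earlier results of these data known. Genes named were the members, PSMB5 to PSMB7, 9 further genes of the pathway fixed by name, up to 3 called genes of each list (2 for cell types) and the 3 with the most alike profile; PSMB11, IFNG and PTPRC were added later, and 1 named gene is not reported here. Of 174 list entries, 172 matched the table by the same name and 2 by an older one. Tested on simulated data of 14787 genes for this comparison, the script recovered 38.1% of genes at a 2-fold difference and 89.8% at a 4-fold one, with 6 of 131 calls among unchanged genes. Alternatives were DESeq2 1.42.0, limma-voom (limma 3.58.1), other scalings and filters, a threshold of 0.01, a required change of over 1.5-fold, thinning to 17.3 M counts, a replicate block and leaving out each library. Dividing the even counts by 2, and leaving those libraries out, were chosen after seeing the data. Samples sharing a number were not treated as pairs. No 2 samples of a group agreed within counting error (chi-square over its degrees of freedom 32.2 or more), so all 9 count. Figures were drawn with matplotlib 3.10.9.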

Additional observations from a re-analysis of the deposited data

Results flagged for a closer look

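Of 32 sets of values checked (13 genes and 3 ratios, in young and in old), 2 had a sample far from the others. Chance flags about 1 in 20. TAP2 in old replicate 4 reached 50.6 CPM, against 39.3 to 40.8 CPM in the remaining old animals. The log2 ratio of PSMB9 to PSMB6 in old replicate 3 was 2.05, and in the other old samples 1.29 to 1.37; that library holds even counts only, and PSMB6 has named copies that can share its reads.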

How the results depend on the processing

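The 5 calls among the members (B2M, TAP1, TAP2, PSMB8 and PSMB9) were kept with limma-voom, RLE scaling, library totals alone, both other filters, thinning, halved even counts and without the even-count libraries. DESeq2 added NLRC5, for 6 members. With a required change of over 1.5-fold, 2 members (B2M and PSMB8) passed, and with an adjusted p under 0.01, 3 (also PSMB9). Leaving out each library gave 4 to 6 members. Over all genes, 2096 passed, 3212 with DESeq2, 599 with the required change and 840 with an adjusted p under 0.01. Leaving out each library gave 1375 to 2359, with 1395 without young replicate 3 and 1375 without old replicate 4, and 1623 passed without both even-count libraries. The ratios of inducible to constitutive subunits kept their direction and p under 0.05 under every alternative run, between 1.39 and 1.68 for PSMB8 to PSMB5, 1.04 and 1.29 for PSMB9 to PSMB6 and 0.66 and 0.77 for PSMB10 to PSMB7. No named gene that passed changed sign. Same-numbered young and old samples deviated together for replicate 1 (r = 0.673) but not for 2 to 4 (-0.0769, 0.0795 and -0.465). So few correlations cannot tell whether samples of the same number share a batch. With a replicate block, 1806 genes and 4 members passed, without TAP1 (0.66, adjusted p = 0.0854), 5 of the 19S subunits fell, and 4 T and NK cell markers and 2 dendritic cell and class II genes rose. The cause of these shifts was not tested. Among the members, depth limits PSME2 most.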
